A study of Homo sapiens with 6 samples.

Results

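Broad H3K4me2 domains are long stretches of chromatin with unbroken enrichment of histone H3 that carries 2 methyl groups on lysine 4. They were taken here as the distinct H3K4me2 intervals of 4000 bp or more in the human cell line NCI-H526, derived from a small cell lung cancer, grown with DMSO. Of 81619 distinct H3K4me2 intervals, 527 met this width. They were 0.646% of the intervals but held 2.72 Mb, or 4.53% of all bases under H3K4me2. Almost all of them also carried H3K4me1, and most carried LSD1 both with an LSD1 inhibitor and with DMSO.

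The data are ChIP-seq peak lists, in which an antibody against a protein or histone mark pulls down the DNA bound to it, and stretches with more reads than background are called as peaks. The groups used were LSD1 in cells given 1 µM GSK2879552 for 24 hours, named GSK552 in the labels, and LSD1, H3K4me2 and H3K4me1 in cells given DMSO, the vehicle. Of the 6 samples, 2 were inputs without a peak list here, and no histone mark with inhibitor entered the comparisons. Each group was 1 library of 1 cell line, so no comparison has a replicate check or a p-value, and the 95% intervals printed cover counting error only. The sources used here do not give the depth of any library, so differences between the LSD1 lists cannot be told apart from depth. Positions are on hg19 and are counted from 1. No hg19 gene annotation or genome was used, so domains are named by position, no gene is assigned to them and no sequence is printed.

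As background, LSD1 (KDM1A) is a demethylase that takes methyl groups off mono- and dimethylated H3K4, usually as part of the CoREST repressor complex, and it uses the cofactor FAD. GSK2879552 inactivates the enzyme by attacking that cofactor. H3K4me1 is typical of enhancers and of the shoulders of active promoters, H3K4me3 of the promoter itself, and H3K4me2 is found at both kinds of element. Wide H3K4-methylated domains are known from many cell types, often at genes for cell identity and at developmental gene clusters.

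The domains were chosen by their H3K4me2 width, so their H3K4me2 values are given as a description. Their median width was 4738 bp, with quartiles of 4291 and 5404 bp. Most lay near the lower limit, with 332 of them under 5000 bp, 104 from 5 to 6 kb and 9 of 10000 bp or more. The 5 narrowest members measured 4001 to 4012 bp and held 10 to 15 summits, the local maxima that the peak caller marks inside an interval. The 5 widest intervals just outside the limit measured 3993 to 3998 bp and held 8 to 16 summits, so the limit cut a continuous range of widths.

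Wider domains held more summits, at a similar density across the broad domains. The 527 domains held 7661 summits, with 4 to 56 in a domain and a median of 14. This was 2.81 summits per kb, beside 2.75 per kb in the 5404 H3K4me2 intervals from 2000 bp to under 4000 bp, hereafter the 2 to 4 kb intervals. Neighbouring summits lay a median of 276 bp apart, with quartiles of 137 and 438 bp. Within the domains the density was 2.80 summits per kb under 5000 bp, 2.86 from 5000 to 7000 bp and 2.78 from 7000 bp upward. Intervals under 1000 bp, most of which have a single summit, differed from this, with 3.32 summits per kb.

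**Figure D1:**
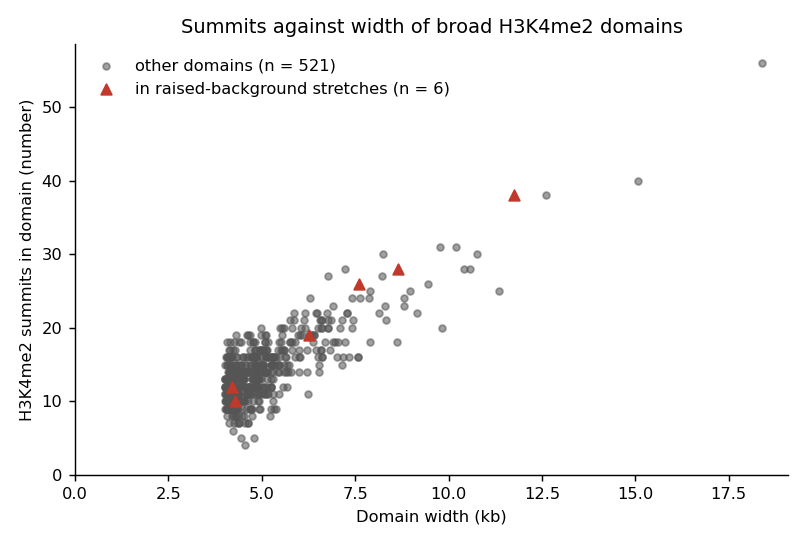
Number of H3K4me2 summits (vertical axis) against domain width in kb (horizontal axis), with 1 point for each of the 527 broad domains. Red triangles are the 6 domains in stretches of raised background on chromosomes 2 and 6, and summit number follows width from 4 summits to the 56 of the widest domain.

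The strength of H3K4me2 varied within a domain. The fold enrichment of a summit, the authors' value for the peak over the caller's background, had a median of 9.41 over all summits of the domains and 16.7 for the highest-scoring summit of each. The highest summit fold was a median of 3.41 times the lowest in the same domain, with a range over domains of 1.55 to 10.1. The highest-scoring summit lay in the middle 50% of the domain in 66.6% of cases, while 51.4% of all summits did. Only 4.17% of highest-scoring summits lay in the outer 10% at either edge, where 18.5% of all summits were.

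Many domains stopped at a short gap and not in open, unmarked chromatin. The next H3K4me2 interval lay within 1000 bp of 62.2% of domain edges, against 54.9% of the edges of 2 to 4 kb intervals, and the median gap was 372 bp against 593 bp. When intervals were stitched over gaps of up to 1000 bp, 3773 stitched intervals reached 4000 bp. The number of broad domains therefore depended on the gap allowed.

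The widest domain lay at chromosome 12, 54378887 to 54397264, and was 18378 bp wide with 56 summits. Its strongest summit had a fold of 20.8, and 8 H3K4me1 intervals covered 44.4% of its length. With inhibitor it held 5 LSD1 peaks over 2487 bp, and with DMSO 1 LSD1 peak over 153 bp, and the lists shared no base there. It was also a member of the largest group of neighbouring domains.

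The second widest domain, at chromosome 11, 118781364 to 118796437, spanned 15074 bp with 40 summits. A single H3K4me1 interval covered 95.5% of it. LSD1 lay on 6880 bp in 3 peaks with inhibitor and on 6245 bp in 5 peaks with DMSO, and 4678 bp were common to the lists. Unlike in the domain on chromosome 12, the lists overlapped here, though each also had bases of its own.

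The third, at chromosome 3, 128200334 to 128212940, was 12607 bp wide with 38 summits and a top fold of 23.8. H3K4me1 covered 52.4% of it in 4 intervals. LSD1 was found in 5 peaks over 2523 bp with inhibitor and in 2 peaks over 1757 bp with DMSO. The fourth, at chromosome 2, 15514394 to 15526152, lay in a stretch of raised background and is described with that group.

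The fifth, at chromosome 3, 18455607 to 18466959, was 11353 bp wide with 25 summits, and H3K4me1 covered 76.1% of it. LSD1 lay on 1605 bp in 3 peaks with inhibitor and on 3560 bp in 6 peaks with DMSO, which was the highest number of DMSO peaks in any domain. The sixth, at chromosome 7, 27205322 to 27216071, was 10750 bp wide with 30 summits and had little H3K4me1 or LSD1. H3K4me1 covered 20.6% of it, and LSD1 lay on 506 bp with inhibitor and 895 bp with DMSO, with no base in common.

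The other 4 of the 10 widest had H3K4me1 over most of their length. The domain at chromosome 11, 120110873 to 120121442, was 10570 bp wide with 84.3% under H3K4me1, and LSD1 lay on 4812 bp with inhibitor and 2142 bp with DMSO. At chromosome 1, 155944284 to 155954701, the domain had 88.7% under H3K4me1, and LSD1 lay on 2824 bp with inhibitor and 2208 bp with DMSO. At chromosome 1, 155048661 to 155058861, the strongest H3K4me2 summit had a −log10 q of 138, and LSD1 lay on 4506 bp with inhibitor and 3801 bp with DMSO. At chromosome 18, 72923996 to 72933827, LSD1 lay on 2385 bp with inhibitor and 269 bp with DMSO. Of the 10 widest domains, then, all held LSD1 in both lists, but the covered length ranged from 4.71 to 90.1% with inhibitor and from 0.833 to 90.9% with DMSO.

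**Figure D2:**
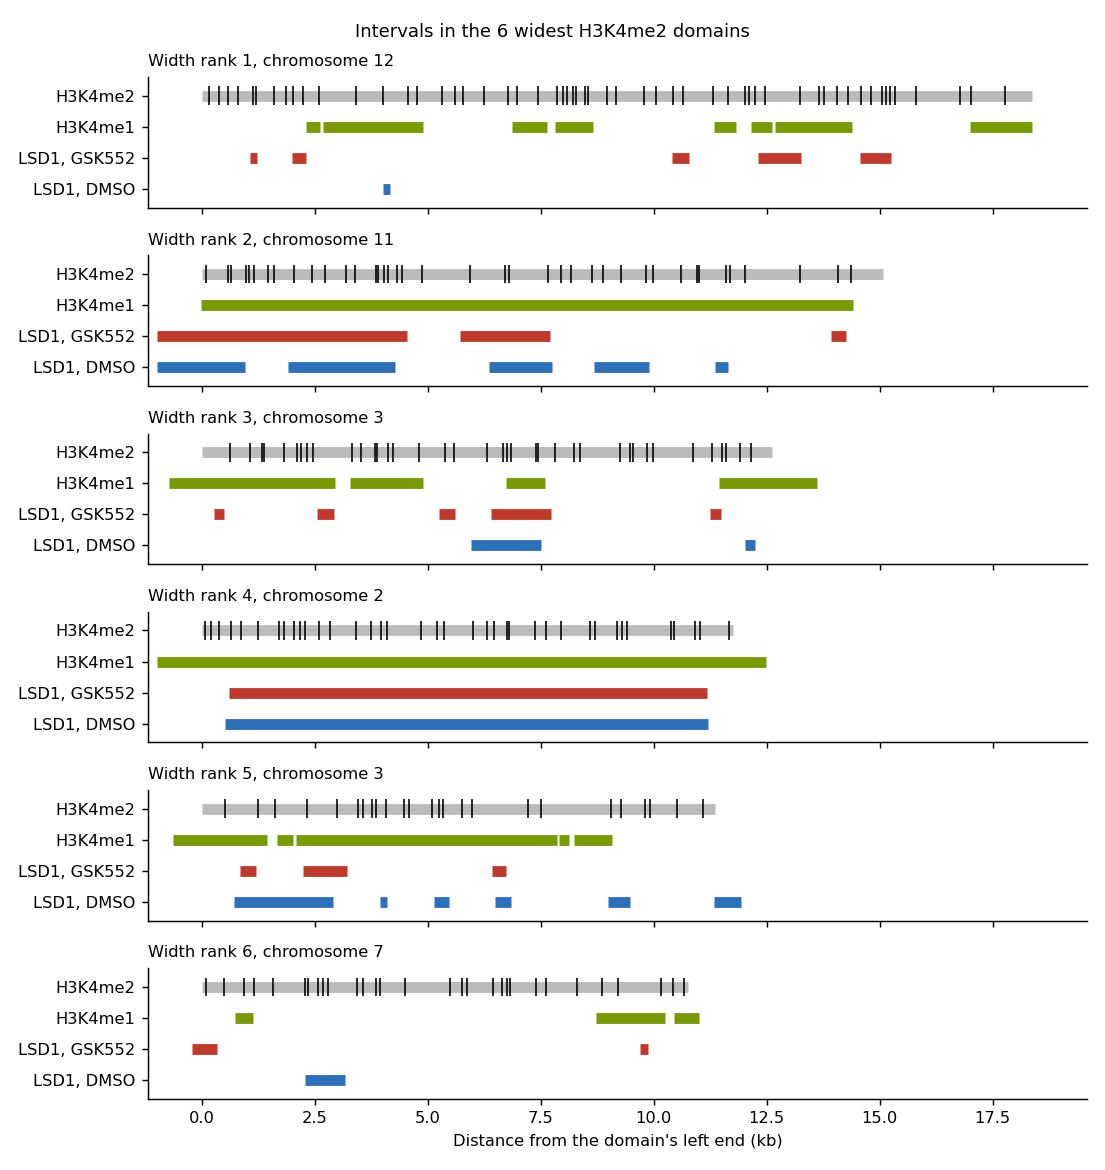
Intervals in the 6 widest domains, drawn to scale by distance in kb from the left end of the domain. Grey bars are the H3K4me2 domain with its summits as black ticks, and coloured bars are H3K4me1 with DMSO, LSD1 with GSK552 and LSD1 with DMSO, drawn to at most 1 kb beyond the domain. LSD1 lies on separate bases in the 2 lists in the first and sixth domain and on nearly the same 10.6 kb in the fourth.

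H3K4me1 was present in nearly every broad domain. An H3K4me1 interval overlapped 516 of the 527 domains by at least 1 bp (97.9%, Wilson interval 96.3 to 98.8%), where 63.1% of all H3K4me2 intervals were overlapped. A wider interval is overlapped more easily, so covered length is the fairer measure. H3K4me1 covered 59.9% of the length of broad domains, against 44.3% in 2 to 4 kb intervals and 38.7% in intervals of 1 to 2 kb. Intervals under 1000 bp stood at 51.3%, so the share did not follow width in 1 direction over the whole list. The domain with median H3K4me1 cover had 62.8% of its length covered, with quartiles of 36.6 and 82.7%.

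**Figure D3:**
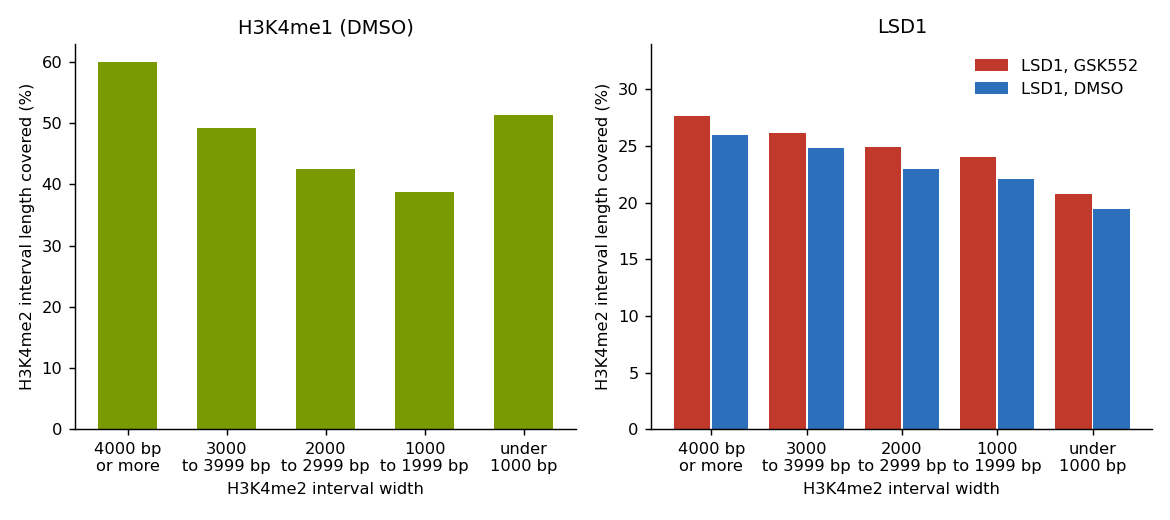
Percent of the length of H3K4me2 intervals covered by H3K4me1 (left panel) and by LSD1 with GSK552 and with DMSO (right panel), for 5 classes of interval width. Each bar is 1 library with no error bar, and the broad domains have the highest value of the 5 classes in all 3 lists (59.9%, 27.6% and 26.0%).

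In most domains H3K4me1 was broken into pieces. A domain met a median of 2 H3K4me1 intervals and at most 8, with exactly 1 in 148 domains and 3 or more in 198. The covered share ranged widely, with 85 domains at 25% or less, 261 between 25 and 75%, and 181 above 75%. Among those above 75%, 88 were covered over more than 90% of their length. Summit density was nearly the same whatever the H3K4me1 cover, at 2.78 per kb at 25% or less and 2.78 per kb above 75%. The median top H3K4me2 fold was 16.9 and 16.1.

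The position of H3K4me1 inside a domain depended on how much of it there was. In the 85 domains with little H3K4me1, the mark covered 5.27% of the middle 20% of the domain and 23.3% of the outer 10% at each edge, so it sat at the shoulders. In the 181 domains with much H3K4me1, it covered 91.8% of the middle and 80.5% of the outer parts. The 261 domains between had 54.3% in the middle and 51.2% at the edges. These groups were formed by H3K4me1 cover itself, so only the arrangement and not the level is described.

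H3K4me1 often ran on past the end of the H3K4me2 domain. An H3K4me1 interval crossed 498 of the 1054 domain edges (47.2%), against 31.3% of the edges of 2 to 4 kb intervals. It crossed both edges of 117 domains and neither edge of 146. In the 1 kb outside each edge, 42.7% of bases were under H3K4me1, against 25.4% outside the 2 to 4 kb intervals. In 155 domains (29.4%) an overlapping H3K4me1 interval was itself 4000 bp or more. Most H3K4me1 intervals of that width lay elsewhere. Of 1230 in the list, 157 met a broad domain and 1069 met only other H3K4me2 intervals.

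H3K4me1 did not avoid the strongest H3K4me2 summits. It lay on 60.3% of the 7661 summits and on 61.3% (57.1 to 65.3%) of the highest-scoring summits. The median fold of H3K4me2 summits on H3K4me1 was 9.32, against 9.52 off it.

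Of the 11 domains without any H3K4me1, the widest lay at chromosome 8, 8745289 to 8750592, with 11 summits over 5304 bp. It had no LSD1 with inhibitor and 1 peak over 1016 bp with DMSO. The next, at chromosome 1, 198901462 to 198906599, had 36 bp under LSD1 with inhibitor and 507 bp with DMSO. At chromosome 12, 26275616 to 26280037, the case was the opposite, with 63.5% of its length under LSD1 with inhibitor and 30.8% with DMSO. At chromosome 1, 204376227 to 204380514, there was neither H3K4me1 nor LSD1. The fifth, at chromosome 3, 49054671 to 49058934, had 146 bp under LSD1 with inhibitor and 336 bp with DMSO. LSD1 overlapped 8 of the 11 by at least 1 bp with inhibitor (72.7%, 43.4 to 90.3%) and 9 with DMSO (81.8%, 52.3 to 94.9%). Over all broad domains the shares were 88.6% and 86.7%, and over all H3K4me2 intervals 40.8% and 35.4%. By length LSD1 covered 17.5% of the 11 with inhibitor and 18.8% with DMSO, where it covered 27.6% and 26.0% of all broad domains. A domain free of H3K4me1 could thus still hold LSD1.

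LSD1 was found in most broad domains in both libraries. With inhibitor, an LSD1 peak overlapped 467 of 527 domains (88.6%, 85.6 to 91.1%), where 40.8% of all H3K4me2 intervals were overlapped. With DMSO it overlapped 457 (86.7%, 83.6 to 89.4%), where 35.4% of all intervals were overlapped. The inhibitor minus DMSO difference was 1.90 points, with an interval that includes 0 (−1.03 to 4.86). Its sign was negative at 5000 bp, with LSD1 lists of equal length and with the highest-scoring 50% of each list. It was 18.98 points when only LSD1 peaks with a −log10 q of at least 2 were counted. That cutoff falls unequally on the lists, whose median −log10 q was 1.95 with DMSO and 2.88 with inhibitor.

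By state, 432 domains had LSD1 in both lists (82.0%), where 26.5% of all H3K4me2 intervals did. LSD1 was found only with inhibitor in 35 domains (6.64%, against 14.3% of all intervals) and only with DMSO in 25 (4.74%, against 8.95%). In 35 domains neither list had a peak (6.64%, against 50.2%). Most of all H3K4me2 intervals are narrow, and a wider interval is overlapped more easily. In 2 to 4 kb intervals 60.6% had LSD1 in both lists and 14.7% in neither. Those with LSD1 only with inhibitor were 16.4% and those only with DMSO 8.23%. In 405 of the 432 domains with LSD1 in both lists the peaks shared bases, and in 27 they did not. The bases under LSD1 in both lists came to 457 kb, which was 60.7% of the bases under LSD1 with inhibitor and 64.5% of those with DMSO.

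The shares differed from those of narrower intervals more than the covered lengths did. In 2 to 4 kb intervals, LSD1 overlapped 77.1% with inhibitor and 68.9% with DMSO. The broad domains were higher by 11.6 points with inhibitor (8.37 to 14.3) and by 17.9 points with DMSO (14.5 to 20.8). By length, LSD1 covered 27.6% of the broad domains with inhibitor and 26.0% with DMSO, beside 25.3% and 23.5% of the 2 to 4 kb intervals. Intervals under 1000 bp stood lowest, at 20.7% with inhibitor and 19.4% with DMSO.

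The inhibitor minus DMSO difference also looked different by share and by length. The difference in share was 1.90 points in broad domains and 8.20 points (6.89 to 9.50) in 2 to 4 kb intervals, whose intervals do not overlap. In covered length it was 1.63 points in broad domains and 1.79 points in the narrower intervals.

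LSD1 peaks in the domains were few and wide. With inhibitor, 822 overlaps of a domain and a peak were counted, or 3.02 per 10 kb (exact Poisson interval 2.82 to 3.23), and with DMSO 720, or 2.64 per 10 kb (2.46 to 2.85). By peak centres inside the domain the values were 2.65 per 10 kb (2.46 to 2.85) with inhibitor and 2.35 (2.17 to 2.54) with DMSO. In 2 to 4 kb intervals the centre values were 2.73 (2.64 to 2.82) and 2.50 (2.42 to 2.58), so peaks were not denser in broad domains, although they covered more of the length. Most domains held 1 or 2 peaks, namely 391 with inhibitor and 404 with DMSO, and 5 or more were found in 4 domains with inhibitor and 2 with DMSO.

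The domains with the most LSD1 peaks with inhibitor had 5 each, and the widest and the third widest were among them. The other 2 had more peaks but fewer bases than with DMSO. At chromosome 11, 115367281 to 115375170, 5 inhibitor peaks covered 2950 bp and 2 DMSO peaks covered 4210 bp. At chromosome 14, 77488308 to 77495076, 5 inhibitor peaks covered 1675 bp and 2 DMSO peaks covered 2889 bp. Peak number and covered length could thus point in opposite directions in the same domain. After the domains on chromosomes 3 and 11 with 6 and 5 DMSO peaks, 3 domains with 4 DMSO peaks were next in rank. They included chromosome 18, 60844636 to 60851720, which lay wholly under 1 H3K4me1 interval and had 20.2% of its length under LSD1 with inhibitor and 22.2% with DMSO. At chromosome 7, 5463805 to 5470246, LSD1 covered 35.6% with inhibitor and 47.7% with DMSO.

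These peaks were wider, by median, than those elsewhere in each LSD1 list. Their median width was 742 bp with inhibitor, against 583 bp for LSD1 peaks on other H3K4me2 intervals and 252 bp for those off H3K4me2. With DMSO it was 819 bp, against 633 bp and 345 bp. Of all H3K4me2 intervals, 75.8% were under 1000 bp, and a wider peak meets a domain more easily. The width of LSD1 peaks on 2 to 4 kb intervals alone was not computed, so the trait is not shown to be particular to broad domains. LSD1 peaks of 2000 bp or more made up 15.1% of the inhibitor peaks in the domains and 2.30% of the whole inhibitor list. With DMSO they made up 15.97% in the domains and 2.68% of the list. Of LSD1 peaks of 4000 bp or more, 15 of 42 with inhibitor and 18 of 75 with DMSO met a broad H3K4me2 domain. Without the 6 domains in stretches of raised background on chromosomes 2 and 6, these counts were 9 with inhibitor and 14 with DMSO.

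LSD1 peaks in the domains, taken at all widths, were not over-represented among the highest-scoring peaks. Their median score percentile was 43.9 in the inhibitor list, below the 49.2 of that whole list. In the DMSO list it was 53.9, above the 49.9 of that whole list. The median fold was 3.62 with inhibitor and 3.48 with DMSO. The domains held 1.66% of inhibitor peaks and 1.59% of DMSO peaks, but 7 of the 1000 highest-scoring inhibitor peaks and 13 of the 1000 highest-scoring DMSO peaks. LSD1 peaks in the domains were, all the same, often found in both libraries. Of the 821 inhibitor peaks in the domains, 73.2% (70.1 to 76.1%) were overlapped by a DMSO peak, against 68.2% (67.6 to 68.7%) on other H3K4me2 intervals. Of the 720 DMSO peaks, 81.1% (78.1 to 83.8%) were overlapped by an inhibitor peak, against 78.6% (78.0 to 79.1%), and in this list the intervals overlap. A wider peak is overlapped more easily by at least 1 bp, and the part of peak width in these shares was not tested.

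Domain by domain, the bases under LSD1 were more with inhibitor in 266 domains, fewer in 225 and equal in 36. The median difference was 5 bp, with quartiles of −407 and 523 bp, and values lay on both sides of 0. Peak number was higher with inhibitor in 168 domains, lower in 101 and equal in 258. Across the 527 domains the covered share with inhibitor and with DMSO had a Spearman rho of 0.69. The domains share the 2 libraries and the same H3K4me2 widths, and this value is a description.

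**Figure D4:**
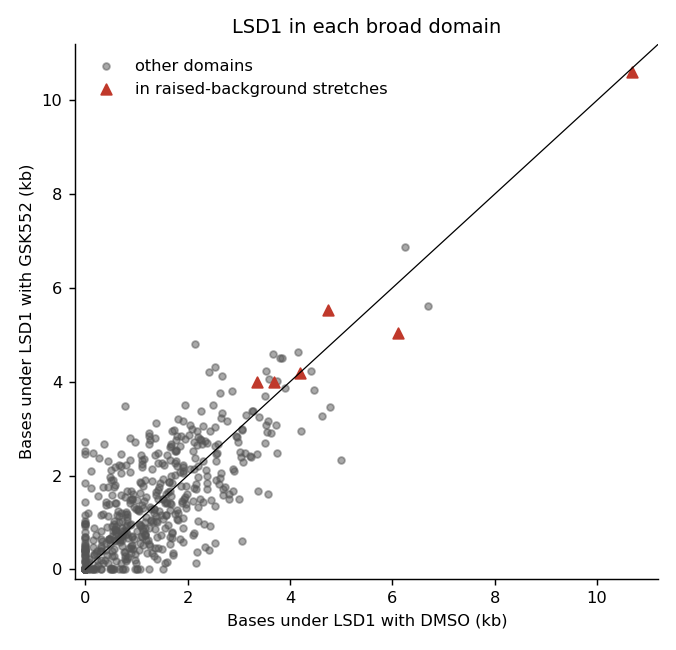
Bases under LSD1 with GSK552 (vertical axis, kb) against bases under LSD1 with DMSO (horizontal axis, kb), with 1 point for each of the 527 domains and a line of equality. Points lie on both sides of the line (266 above, 225 below), and red triangles are the 6 domains in stretches of raised background.

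The 5 domains with the largest difference toward the inhibitor had 2453 to 2707 bp more under LSD1 with inhibitor. The first, at chromosome 8, 81079077 to 81083772, had 74.0% of its length under LSD1 with inhibitor and 16.4% with DMSO. The domains at chromosome 8, 125736043 to 125740701, and at chromosome 14, 104602759 to 104607759, had 58.1% and 50.5% under LSD1 with inhibitor and no DMSO peak. Another, at chromosome 1, 27851801 to 27856021, had 58.1% with inhibitor and no DMSO peak. The remaining one, with 2670 bp more, was the seventh widest domain, on chromosome 11.

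The 5 domains with the largest difference toward DMSO had inhibitor minus DMSO values of −2668 to −1981 bp. At chromosome 14, 58297857 to 58303136, LSD1 covered 44.1% with inhibitor and 94.7% with DMSO, where a single peak ran over 4999 bp of the domain. At chromosome 14, 77503698 to 77508952, it covered 11.4% with inhibitor and 58.4% with DMSO. The other 3 were at chromosome 18, 74197951 to 74203162, at chromosome 20, 52353158 to 52357685, and at chromosome 2, 169099258 to 169103402. All 5 had LSD1 in both lists, while 3 of the 5 with the largest difference toward the inhibitor had no peak with DMSO. These domains were ranked by the difference itself, and with 1 library a side the values carry no error.

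The 35 domains without LSD1 in either list were led by chromosome 1, 234738783 to 234744792, which was 6010 bp wide with 16 summits and a top fold of 16.1. H3K4me1 covered 18.8% of it. The next 4 in width, on chromosomes 7, 3, 22 and 9, were 4858 to 5085 bp wide and had 43.1 to 49.8% of their length under H3K4me1. Strong, wide H3K4me2 therefore also occurred where neither LSD1 list had a peak.

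LSD1 lay toward the middle of the domains in both libraries. With inhibitor it covered 31.0% of the middle 20% of the domains and 21.9% of the outer 10% at each edge. With DMSO it covered 29.9% of the middle and 19.3% of the outer parts. Over a distance of 50% of the width on each side outside, the values were 12.1% with inhibitor and 10.5% with DMSO. The middle was higher than the edges under every alternative tried for this measure, by 4.65 to 12.9 points with inhibitor and by 7.80 to 11.6 points with DMSO. In the 195 domains of 5000 bp or more the intervals of this difference included 0, at 5.47 points (−3.31 to 14.1) with inhibitor and 8.06 points (−0.590 to 16.6) with DMSO, while over all 527 domains it was 9.08 points (3.76 to 14.3) and 10.6 points (5.44 to 15.7). These binomial intervals over the number of domains leave out that middle and edges belong to the same domains. Whether they include 0 therefore decides nothing about the spread of covered bases. The 2 to 4 kb intervals had a like profile, with 29.4% in the middle with inhibitor and 27.4% with DMSO.

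LSD1 and H3K4me1 had opposite profiles in the domains with little H3K4me1. In those 85 domains LSD1 covered 39.6% of the middle with inhibitor and 36.6% with DMSO, where H3K4me1 covered 5.27%. In the 181 domains with much H3K4me1, LSD1 covered 33.4% of the middle with inhibitor and 34.1% with DMSO. Both kinds of domain thus had LSD1 in their centre, with or without H3K4me1 on the same bases.

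**Figure D5:**
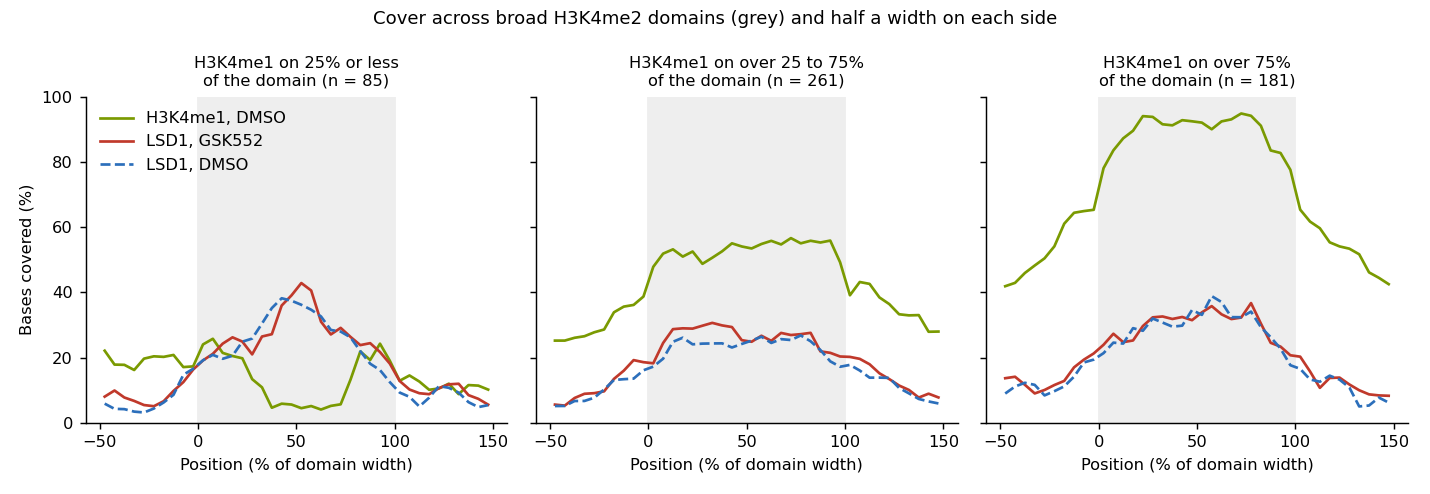
Percent of bases covered by H3K4me1 with DMSO (green), LSD1 with GSK552 (red) and LSD1 with DMSO (blue, dashed) in bins of 5% of the domain width, across the domain (grey) and 50% of its width on each side. The 3 panels split the domains by H3K4me1 cover (85, 261 and 181 domains), and LSD1 is highest near the middle in the left panel, where H3K4me1 is lowest.

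Summed over all bases of the domains, LSD1 cover was higher on the bases without H3K4me1. Of the 1.63 Mb of domain under H3K4me1, LSD1 covered 22.9% with inhibitor and 22.7% with DMSO. Of the 1.09 Mb without H3K4me1, it covered 34.7% with inhibitor and 30.9% with DMSO. The inhibitor minus DMSO difference was 0.218 points (−4.85 to 5.29) under H3K4me1 and 3.74 points (−1.93 to 9.37) without it. These intervals include 0 and overlap each other. They are binomial ones over the number of domains and leave out that both lists were read on the same domains. They therefore do not measure the spread of a difference in covered bases. The first was below 0 in 5 alternatives. The second kept its sign in all but the highest-scoring 50% of the lists, where it was −1.97 points. In 2 to 4 kb intervals the differences were −1.12 points under H3K4me1 and 4.12 points without it.

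Compared between domains, LSD1 cover did not follow H3K4me1 cover in 1 direction. The Spearman rho of the covered shares over the 527 domains was 0.057 with inhibitor and 0.072 with DMSO. The 11 domains without H3K4me1 had LSD1 on 17.5% of their length with inhibitor and 18.8% with DMSO, the lowest of the classes of H3K4me1 cover. LSD1 with inhibitor was found in 80.0% (70.3 to 87.1%) of domains with H3K4me1 on 25% or less and in 94.5% (90.1 to 97.0%) of those above 75%. With DMSO the shares were 85.9% (76.9 to 91.7%) and 89.5% (84.2 to 93.2%), whose intervals overlap. Domains with H3K4me1 over more than 90% of their length had the most LSD1, at 35.5% of their length with inhibitor and 34.6% with DMSO. Domains with H3K4me1 on over 0 to 25% had 28.8% and 27.3%, above the 24.4% and 24.7% of those on 75 to 90%.

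The share of H3K4me2 summits under LSD1 was slightly above the share of domain length under it. By length, LSD1 covered 27.6% with inhibitor and 26.0% with DMSO. It covered 29.1% (28.1 to 30.1%) of summits with inhibitor and 27.0% (26.0 to 28.0%) with DMSO, where the interval includes the value by length. These intervals count summits as independent, though several summits can lie under the same LSD1 peak. For the highest-scoring summit of each domain the shares were 37.2% (33.2 to 41.4%) with inhibitor and 37.8% (33.7 to 42.0%) with DMSO. The median H3K4me2 fold of summits under LSD1 was 9.50 with inhibitor, against 9.37 for those not under it. With DMSO it was 10.2 against 9.15. The LSD1 cover of a domain followed its H3K4me2 score only weakly, with a Spearman rho over the 527 domains of 0.15 with inhibitor and 0.12 with DMSO.

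Along the genome, broad domains were found on chromosomes 1 to 22 and X and on none of the 56 H3K4me2 intervals of chromosome Y. Chromosome 1 held the most, with 73. Relative to the number of H3K4me2 intervals, chromosome 11 had the highest share, at 49 of 4635 (1.06%, 0.801 to 1.39%), followed by chromosome 1 (0.935%, 0.744 to 1.17%). Chromosome 10 had only 5 of 3433 (0.146%, 0.0622 to 0.341%) and chromosome X 3 of 2291 (0.131%, 0.0445 to 0.384%). Chromosome 19, with the densest H3K4me2 intervals, had 17 of 3335 (0.510%). By length, chromosome 17 was the richest, with 4.31 domains per 10 Mb, where the largest peak end stood for chromosome length. The background implied by the fold and the p-value of H3K4me2 varied between domains. It was 0.607 to 1.00 times the list median in the 5 domains of chromosome 10. On chromosome 11 it ranged from 0.738 to 3.20 times and on chromosome 1 from 0.570 to 4.67 times. Its part in the differences between chromosomes was not tested.

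Most domains stood alone. The median gap to the nearest other broad domain was 871 kb, and 104 domains (19.7%) had another within 100 kb. Joined over gaps of up to 100 kb, the 527 domains formed 423 single domains, 36 pairs and 9 groups of 3 to 5. The largest group lay at chromosome 12, 54366428 to 54433343, where 5 domains filled 43.9 of 66.9 kb. H3K4me1 covered 64.9% of these domains, but LSD1 only 12.2% with inhibitor and 10.8% with DMSO.

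LSD1 cover differed between the other groups. The 4 domains at chromosome 11, 117538365 to 117749389, had LSD1 on 57.3% of their length with inhibitor and 53.3% with DMSO, and H3K4me1 on 93.0%. The 4 at chromosome 1, 155041992 to 155166863, had LSD1 on 42.4% with inhibitor and 34.7% with DMSO. The 3 at chromosome 8, 81048904 to 81083772, had LSD1 on 56.1% with inhibitor and 31.2% with DMSO. At chromosome 2, 119581816 to 119599848, 3 domains filled 16.96 of 18.0 kb and LSD1 covered 4.82% with inhibitor and 6.28% with DMSO. The 3 at chromosome 22, 46450280 to 46479126, were as low, at 4.46% with inhibitor and 5.99% with DMSO. H3K4me1 covered 84.0% of the 3 domains on chromosome 2, so groups with much H3K4me1 differed widely in LSD1. The background implied by the fold and the p-value of H3K4me2 differed between groups too. It was 2.05 to 3.00 times the list median in the 4 on chromosome 11 and 2.50 to 3.00 times on chromosome 1. In the 3 domains on chromosome 2 it was 0.820 to 1.19 times, and on chromosome 22 0.648 to 1.17 times. Its part in the LSD1 cover was not tested. Domains of a group share their neighbourhood and are not independent.

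A set of 6 domains lay in stretches of chromosomes 2 and 6 in which the background implied by the fold and the p-value of H3K4me2 was 13.0 to 32.5 times the list median. The other 521 domains had 0.570 to 4.67 times the median. The domain at chromosome 2, 15514394 to 15526152, was 11759 bp wide with 38 summits, a top fold of only 5.30 and a −log10 q of 111. LSD1 covered 90.1% of it with inhibitor and 90.9% with DMSO, each as 1 peak, the widest LSD1 peak in either list. The domain at chromosome 2, 16078923 to 16086516, had LSD1 on 72.8% with inhibitor and 62.5% with DMSO. At chromosome 6, 135500868 to 135507122, the values were 64.0% and 58.9%, beside a top H3K4me2 −log10 q of 173, the highest of the list. All 6 had LSD1 over 58.4% or more of their length with inhibitor and over 58.9% or more with DMSO. Whether the width of these domains reflects the raised background was not tested. Without them all 13 values recomputed for the broad domains stayed within the interval of the reported value, but leaving out 6 of 527 domains could move them only a little.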

How the data were processed

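ChIP-seq peak lists for LSD1 (GSK552 and DMSO), H3K4me2 and H3K4me1 (DMSO) in NCI-H526 cells were used, 1 library each, with groups from the sample descriptions. The labels repeat the treatment for all samples; only GSK552 libraries were taken as treated. BWA, Picard and MACS2 2.0 on hg19 are named in the submitters' processing notes; not given in the sources used here are other settings, the input and the depth. The deposited score is 10 times the −log10 q, the deposited fold enrichment is a ratio over the caller's background, and the significance of each peak was deposited as −log10 p and −log10 q. LSD1 lists have the broad-peak layout and reach down to a −log10 q of 1.00, histone lists the narrow-peak layout with 1 row per summit and reach to 2.01, so they differ in how intervals are joined.

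Here the 178083 H3K4me2 rows were reduced to 81619 intervals and the 175135 H3K4me1 rows to 94689. Overlap meant at least 1 bp. Shares have Wilson intervals and peak densities exact Poisson intervals. Differences in LSD1 share between the lists have Newcombe intervals paired on the same H3K4me2 intervals. Those between width classes, and those in covered length, are unpaired. Implied background is the Poisson background at which a peak's fold, with a pseudocount of 1, has its p-value; stretches are runs of at least 10 peaks over the 4 lists above 6 times the list median. No test between conditions was run. The code was tested on simulated data. Domains named were the 10 widest, the 5 with the most LSD1 peaks in each list, the 5 widest without LSD1 and without H3K4me1, and the 5 with the largest rise and fall in LSD1 bases with inhibitor; groups and stretches were picked from their values. The planned gene lists, promoter and gene positions were not run, since the gene table is on GRCh38. The members and measures were chosen with earlier results of these data known. Python 3.11.15, numpy 2.4.6, pandas 2.3.3, scipy 1.17.1 and matplotlib 3.10.9 were used.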

Additional observations from a re-analysis of the deposited data

How the results depend on the processing

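Of 106 values recomputed under alternatives, 59 kept their sign and stayed within the interval of the reported value. All 13 did so on chromosomes 1 to 22 and all 13 without the raised stretches. These settings kept 524 and 521 of the 527 domains, so they could move the values only a little. For covered length, the interval was a binomial one over the number of domains. The alternatives for the split by H3K4me1 and for middle against edge were added after the data were seen. At 3000 bp (1653 domains) the shares were 94.98% with H3K4me1, 84.5% with LSD1 and inhibitor and 79.8% with LSD1 and DMSO, and H3K4me1 covered 53.7% of the length. At 5000 bp (195 domains) the shares were 98.97%, 92.8% and 94.4%, with an inhibitor minus DMSO difference of −1.54 points. With stitched intervals (3773 domains) the shares were 94.6%, 91.8% and 81.9%, with a difference of 9.86 points. H3K4me1 then covered 48.7% and LSD1 23.1% with inhibitor and 20.2% with DMSO, with 2.64 and 2.23 peaks per 10 kb. By centres the shares were 94.1%, 82.7% and 81.2%, with 2.65 and 2.35 peaks per 10 kb. With the highest-scoring 50% of the LSD1 and H3K4me1 lists the shares were 92.0%, 54.1% and 58.1%, with a difference of −3.98 points. Covered length was then 55.4% for H3K4me1, 14.9% for LSD1 with inhibitor and 17.0% with DMSO, with 1.33 and 1.36 peaks per 10 kb. With LSD1 lists of equal length the difference was −0.949 points and the inhibitor density 2.73 per 10 kb. Counting only LSD1 peaks with a −log10 q of at least 2, the shares were 76.3% with inhibitor and 57.3% with DMSO, a difference of 18.98 points. This cutoff lies above the median −log10 q of the DMSO list (1.95) and below that of the inhibitor list (2.88), so it removes a larger part of the DMSO list. Covered length was then 22.4% and 16.8%, and density 2.17 and 1.34 per 10 kb. In the parts of domains under H3K4me1 the inhibitor minus DMSO difference in LSD1 cover was −0.780 points at 3000 bp, −0.531 at 5000 bp, −0.0556 with stitched intervals, −2.11 with the highest-scoring 50% and −1.15 with equal length. In the parts without H3K4me1 it was −1.97 with the highest-scoring 50% and 9.37 with the minimum −log10 q of 2. Leaving out weaker peaks lowers shares and cover by construction, and changing the width changes the domains; otherwise the cause was not tested. No paired analysis was possible because there was only 1 library per group, so nothing was tested. Depth is unknown, so a peak missing from a list is not shown to be absent.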
